A study of Mus musculus with 6 samples.

Results

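The T cell receptor gamma and delta genes were read in lung group 2 innate lymphoid cells (ILC2s) of neonatal mice, as 9 of the 55394 genes in the files. They are 5 constant genes (Trdc, Tcrg-C1, Tcrg-C2, Tcrg-C3 and Tcrg-C4) and 4 variable genes (Trdv4, Trdv5, Trgv2 and Trgv4), chosen by name. The files list 5 of the 9 under exactly these names. The other 4, the gamma constant genes, are listed as Trgc1 to Trgc4 and were matched by the Ensembl identifiers that GENCODE M21 gives to Tcrg-C1 to Tcrg-C4. Each library came from 1000 cells sorted from lung, and live CD45+, CD90.2+ and CD25+ cells without lineage markers are the study's gate for ILC2s. The 3 Abx libraries were from wild type pups of C57BL/6 dams that drank ampicillin, metronidazole, neomycin and vancomycin from gestation day 10 to 14, and the 3 control (Con) libraries were from wild type pups of dams without the antibiotics. The day after birth of these pups, and whether a library pooled several pups or litters, are not given in the sources used here, so the p-values measure the spread between these libraries, which may be technical.

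A gamma delta T cell receptor is built from a gamma and a delta chain, and each chain gene is assembled in the thymus by joining a variable (V) segment to a joining (J) segment, with a diversity segment between them in delta. The joined exon is then spliced to a constant (C) gene, which encodes the part of the chain next to the membrane. The mouse gamma locus holds 4 units, each with its own J and C gene, and the delta genes lie inside the alpha locus. Innate lymphoid cells carry no antigen receptor, but their progenitors share early steps with T cells, and gamma and delta transcripts are known in ILC2s, from unrearranged (germline) genes and from rearrangements that yield no receptor. Values per gene, as here, do not tell a germline from a rearranged transcript.

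The starts of the 4 gamma constant genes are shown because their likeness limits what a read can be assigned to. Each line gives the first 90 coding bases of the GENCODE M21 transcript (GRCm38), read 5′ to 3′ in the direction of the gene, and capitals mark bases that differ from Tcrg-C1. They lie at chr13:19214103-19214192 (plus strand), chr13:19307462-19307551 (minus), chr13:19260885-19260974 (plus) and chr13:19344558-19344647 (plus).
Tcrg-C1: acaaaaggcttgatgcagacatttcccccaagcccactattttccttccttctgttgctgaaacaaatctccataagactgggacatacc
Tcrg-C2: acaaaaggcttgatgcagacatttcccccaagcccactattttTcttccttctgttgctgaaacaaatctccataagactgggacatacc
Tcrg-C3: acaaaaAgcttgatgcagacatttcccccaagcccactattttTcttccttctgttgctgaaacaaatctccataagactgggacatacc
Tcrg-C4: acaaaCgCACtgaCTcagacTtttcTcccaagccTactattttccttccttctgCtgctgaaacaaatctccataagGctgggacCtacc
Tcrg-C2 differed from Tcrg-C1 at 1 of these bases, Tcrg-C3 at 2 and Tcrg-C4 at 12. Over the whole aligned transcripts Tcrg-C1 was 94.4% identical to Tcrg-C2 and 96.9% to Tcrg-C3. Of the 50-base windows of Tcrg-C2, 18.2% occur unchanged in Tcrg-C1, and of those of Tcrg-C3, 25.7% do. Tcrg-C4 shared 0 such windows with the other 3. Levels of Tcrg-C1, Tcrg-C2 and Tcrg-C3 are therefore uncertain where reads fell in the shared stretches, whereas Tcrg-C4 is separate.

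The ends of the 4 variable genes are shown because they are the side that is joined to a J segment. Each line holds the last 90 bases of the V exon, with the codon of the conserved cysteine in capitals, taken as the cysteine codon that directly follows a pair of tyrosine codons. They lie at chr13:19336573-19336662 (minus strand), chr13:19185417-19185506 (plus), chr14:54075426-54075515 (plus) and chr14:54148662-54148751 (minus).
Trgv2: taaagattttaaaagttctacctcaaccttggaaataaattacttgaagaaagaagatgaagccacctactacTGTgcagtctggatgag
Trgv4: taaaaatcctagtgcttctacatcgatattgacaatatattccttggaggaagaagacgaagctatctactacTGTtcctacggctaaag
Trdv4: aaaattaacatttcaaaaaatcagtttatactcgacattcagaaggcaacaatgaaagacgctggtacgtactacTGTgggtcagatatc
Trdv5: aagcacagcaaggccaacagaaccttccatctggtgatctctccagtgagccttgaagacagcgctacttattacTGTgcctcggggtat
Trgv2 and Trgv4 were 69.8% identical over 377 aligned bases and shared 0 windows of 50 bases. Trgv2 was closer to Trgv1 (95.2%) and Trgv3 (94.3%), which held 7.01% and 4.30% of its windows. Trdv5 is read on the strand opposite to Trdc, and the 3′ ends of both annotated genes overlap by 207 bases, a stretch that includes the Trdv5 bases printed here, so that 40.6% of the windows of Trdv5 lie in Trdc. No source used here says that the counting used strand, and reads of Trdc and Trdv5 in that stretch cannot be told apart.

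Levels are given as FPKM, fragment counts scaled to exon length and to the mapped total, as deposited. Total FPKM was 420941 to 449523 in Con and 431613 to 489262 in Abx, and the number of reads behind it is unknown. A gene listed at 0 need not have been absent, because in Abx library 3 even Polr2h, which encodes an RNA polymerase subunit, was listed at 0. The ILC2 genes Gata3, Rora, Klrg1, Arg1, Areg and Icos were above 30 FPKM in all 6 libraries. Others were lower. Il2ra, which encodes CD25, and Il17rb went down to 13.7 and 14.1 FPKM in Abx library 2. Thy1, which encodes CD90, and Il7r went down to 8.82 and 18.1 FPKM in Con library 2. Il1rl1, which encodes the IL-33 receptor ST2, was at 0.06 to 2.94 FPKM in Con and at most 0.03 FPKM in Abx. Xist was at 3.78 to 5.09 FPKM in Con and listed at 0 throughout Abx, and Eif2s3y, a Y-linked gene, was at 0.03 to 0.86 FPKM in Con and 11.9 to 24.4 FPKM in Abx. For every difference between the groups, antibiotic exposure and the sex of the pups cannot be told apart.

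Of the constant genes, Tcrg-C1 and Tcrg-C4 were transcribed in every library of both groups, and Trdc was low in Con and higher in each Abx library. Tcrg-C1 (ENSMUSG00000076749, chromosome 13 from 19214103 to 19217024), the constant gene of the first gamma unit, reached 265, 202 and 114 FPKM for Con libraries 1, 2 and 3, beside 353, 362 and 162 FPKM for Abx libraries 1, 2 and 3, the order kept for all values given by library. The groups overlapped, and Con averaged 194 ± 76.0 FPKM against 292 ± 113 FPKM for Abx (SD, n = 3 each). In Con its mean was above that of 96.5% of the 8718 genes tested. Tcrg-C4 (ENSMUSG00000076757, from 19344558 to 19352756), which belongs to the last unit of the locus, was at 90.5, 157 and 141 FPKM in the controls, beside 51.9, 145 and 113 FPKM in Abx. These groups overlapped too, with means of 129.5 ± 34.8 and 103 ± 47.3 FPKM (SD, n = 3 each). In both groups library 1 had the lowest Tcrg-C4 of its group, whereas the lowest Tcrg-C1 was in library 3. In libraries of many cells, here and for every gene that follows, fewer cells of a type and less RNA per cell cannot be told apart.

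The balance of the 2 abundant constant genes also overlapped between the groups. The ratio of Tcrg-C1 to Tcrg-C4 came to 2.93, 1.28 and 0.811 among controls, beside 6.80, 2.5 and 1.43 for Abx (exact two-sided permutation test on the log2 ratio, p = 0.4). With 3 libraries against 3 the smallest p of this test is 0.1. All 4 gamma constant genes together came to 254.6 to 359.9 FPKM in Con and 289.6 to 514 FPKM in Abx, and Tcrg-C1 and Tcrg-C4 made up nearly all of it.

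Trdc (ENSMUSG00000104876, chromosome 14 from 54142851 to 54148868), the single delta constant gene, was at 1.91, 0.01 and 1.19 FPKM in the controls, beside 8.08, 6.81 and 4.91 FPKM in Abx. Every Abx library was above every Con library, and the means were 1.04 ± 0.959 and 6.6 ± 1.6 FPKM (SD, n = 3 each). Its annotated transcript is 3865 bases long with 458 coding bases, and FPKM divides by the whole length, which lowers the value if reads came mainly from the coding part. In Con 3.81% of the genes tested had a lower mean.

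The remaining constant genes were at or near 0 in Con. Tcrg-C2 (ENSMUSG00000076752, from 19304649 to 19307551 of chromosome 13) was listed at 0, 0.05 and 0 FPKM in the controls, beside 0, 6.93 and 14.2 FPKM in Abx. Tcrg-C3 (ENSMUSG00000091682, from 19260884 to 19263528) was at 0.07, 0 and 0 FPKM in the controls, beside 0.43, 0.59 and 0 FPKM in Abx. Tcrg-C2 was above 1 FPKM in Abx libraries 2 and 3 but not in Abx library 1, and Tcrg-C3 stayed under 1 FPKM in all 6 libraries. Neither reached 1 FPKM in 3 libraries, the limit for the test across genes, and an exact two-sided permutation test on log2(FPKM + 1) gave p = 0.4 for each.

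**Figure D1:**
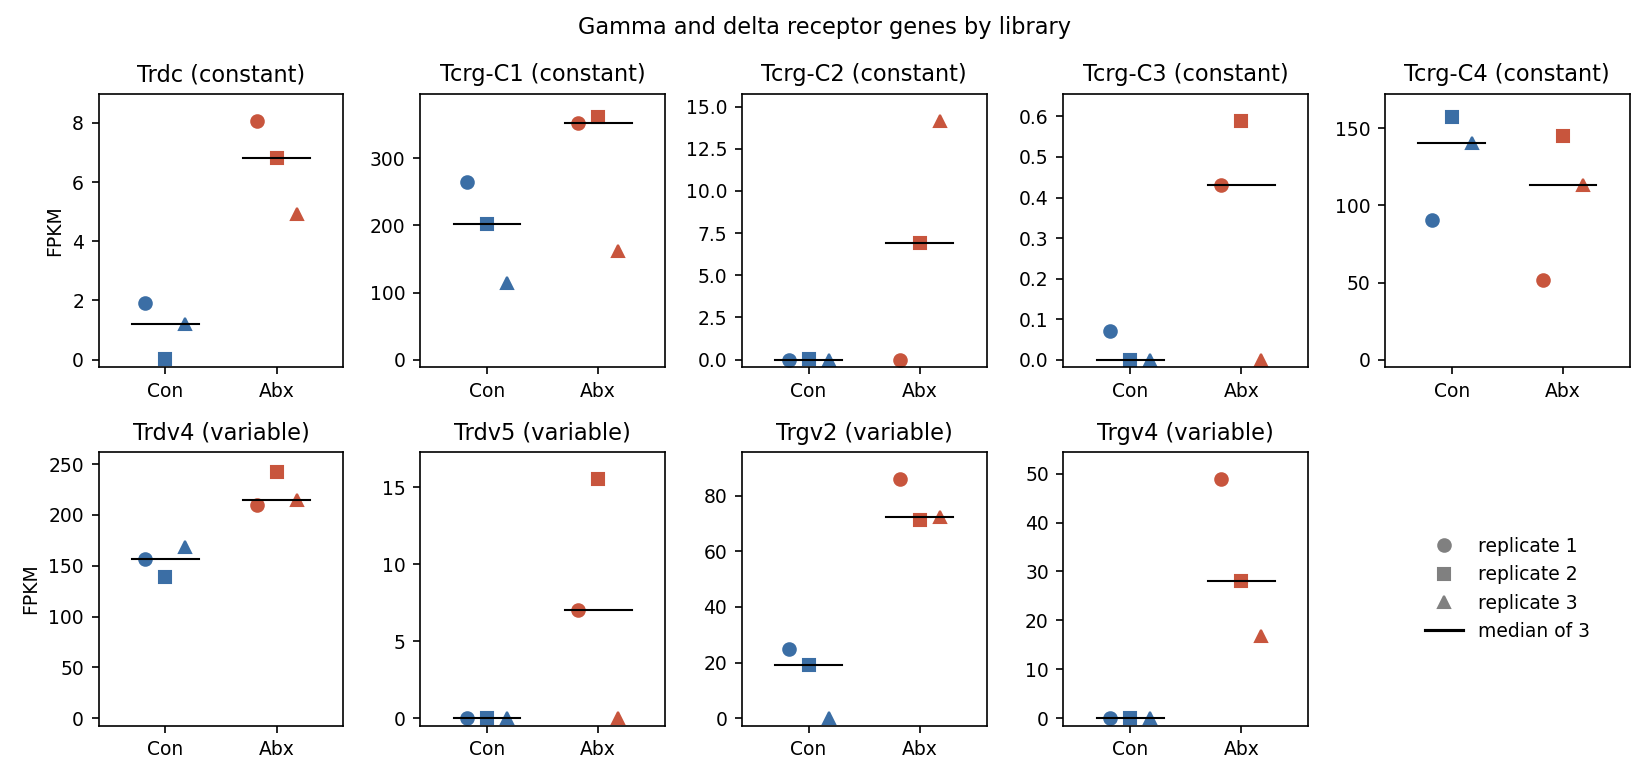
FPKM of the 9 genes in each library, with a panel and a linear axis from 0 for each gene, 3 control (Con, blue) and 3 antibiotic (Abx, red) libraries with a marker shape per replicate number and a line at the median. Trdc, Trdv4, Trgv2 and Trgv4 show no overlap of the groups, and Tcrg-C1 and Tcrg-C4 do.

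Of the variable genes, 3 of 4 were higher in every Abx library than in any Con library, which held for 8.49% of all genes tested. Trgv4 (ENSMUSG00000076745, chromosome 13 from 19184974 to 19185506), a V gene of the first unit that is used by many gamma delta T cells of the adult lung and lymph nodes, was listed at 0 FPKM in all 3 Con libraries. In Abx libraries 1, 2 and 3 it was at 48.9, 28.1 and 16.8 FPKM. No fold change is given against a group listed at 0. Trgv4 came into the test across genes only through its Abx libraries, so that a difference was built into its being tested.

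Trgv2 (ENSMUSG00000076754, from 19336573 to 19337167), the V gene of the second unit, was at 24.9, 19.3 and 0 FPKM in the controls, beside 86.0, 71.2 and 72.4 FPKM in Abx. All Abx libraries lay above all Con libraries, and Con library 3 stood apart at 0. Its difference on the log2(FPKM + 1) scale was 3.26 with that library and 1.75 without it, in both cases toward Abx.

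On the delta side, Trdv4 (ENSMUSG00000076867, chromosome 14 from 54074905 to 54075515), the delta V gene used by the earliest fetal gamma delta T cells, was the most abundant V gene of both loci in each library. It was at 156, 139 and 169 FPKM in the controls, beside 209, 242 and 215 FPKM in Abx. The groups did not overlap, and the step was small, from 155 ± 14.8 FPKM to 222 ± 17.5 FPKM (SD, n = 3 each). Its mean in Con was above that of 95.4% of the genes tested. Trdv5 (ENSMUSG00000076873, from 54148662 to 54149294), which lies beyond Trdc in the opposite orientation, was at 7.03, 15.5 and 0 FPKM in Abx and never above 0 in Con. It was not tested across genes (exact two-sided permutation test, p = 0.4). Trdc was also above its Con levels in Abx library 3, where Trdv5 was listed at 0. How reads of the shared stretch were divided between Trdc and Trdv5 was not tested.

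As a description with no test, the 4 variable genes together came to 181, 159 and 169 FPKM in Con and to 351, 357 and 304 FPKM in Abx, with Trdv4 the largest part in each library. The 5 constant genes together came to 358, 360 and 256 FPKM in Con and to 413, 521 and 295 FPKM in Abx. The sums of the variable genes did not overlap between the groups, and those of the constant genes did.

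Of the 9 genes 6 were compared between Abx and Con in limma's moderated test across the 8718 genes that reached 1 FPKM in 3 or more libraries, a two-sided test on log2(FPKM + 1) whose p-values were adjusted by the Benjamini-Hochberg method. The call needed more than a 2-fold difference with an adjusted p below 0.05. By it 0 of the 6 were called, where 0.0574% of all genes tested were. At an unadjusted p under 0.05, 4 of the 6 were higher in Abx and 0 were lower, where 4.74% of all genes tested were higher and 6.25% lower. In the same 4 genes the groups did not overlap, with every Abx library the higher, beside the 8.49% of all genes. These counts leave out the 3 genes under the limit and include Trgv4, so they describe the members and are not read as a test of the family.

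Among the variable genes, Trgv4 had a difference of 4.89 (standard error 0.72, limma adjusted p = 0.0911). Its size rests on the pseudocount because Con was listed at 0, and the gene came into the test only through its Abx libraries. The difference of Trgv2 was 3.26 (standard error 1.15, limma adjusted p = 0.313), and that of Trdv4 was 0.52 (standard error 0.20, limma adjusted p = 0.378). Trdc differed by 2.01 (standard error 0.71, limma adjusted p = 0.310). For the gamma constant genes the 95% interval of the difference, not adjusted for the number of genes, reached from -0.39 to 1.55 for Tcrg-C1 (limma adjusted p = 0.693) and from -1.38 to 0.57 for Tcrg-C4 (limma adjusted p = 0.790). Both intervals include 0, and their width does not show equal levels either. The difference of Tcrg-C1 was 0.58, and it was 0.24 without Con library 3 and 0.96 without Abx library 3 (limma adjusted p = 0.934 and 0.311). That of Tcrg-C4 was -0.41 and turned to 0.02 without Abx library 1. The median difference of all genes tested was -0.06.

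**Figure D2:**
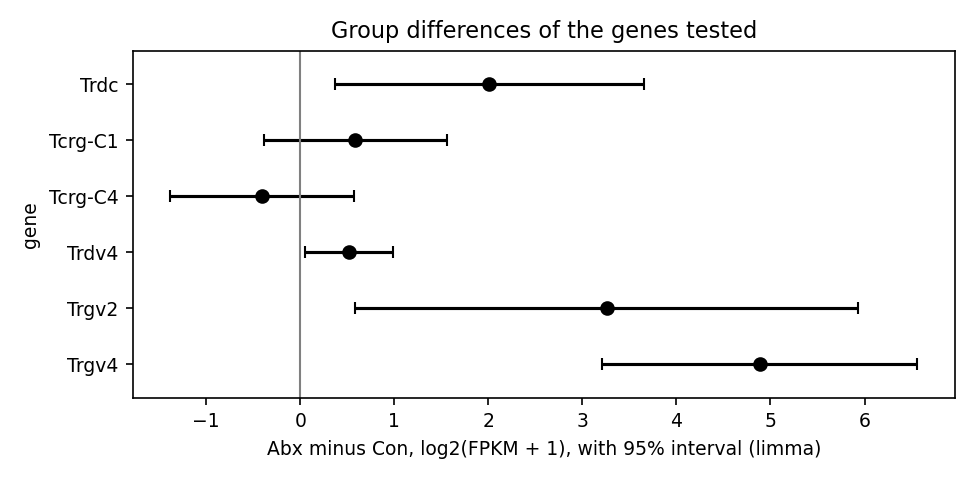
Difference between Abx and Con on the log2(FPKM + 1) scale for the 6 genes tested, as points with the unadjusted 95% interval from limma. The intervals of Trdc, Trdv4, Trgv2 and Trgv4 lie above 0 and those of Tcrg-C1 and Tcrg-C4 span it, while no gene passed after adjustment. Trgv4 came into the test only through its Abx libraries.

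Read along the gamma locus, V and C genes of the same unit were often at unlike levels. In the first unit Tcrg-C1 did not go below 114 FPKM among the Con libraries, while its V genes Trgv7, Trgv4 and Trgv6 were listed at 0 there and Trgv5 was above 0 only in Con library 2, at 16.1 FPKM. In the second unit Trgv2 was at 86.0 FPKM in Abx library 1, where Tcrg-C2 was listed at 0. In unit 4 Tcrg-C4 was at 51.9 FPKM or more in each library, and its V gene Trgv1 was above 0 only in Abx library 3, at 35.3 FPKM. The third unit, with Trgv3, Trgj3 and Tcrg-C3, did not pass 1 FPKM in any library.

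The J segments of units 1 and 4 were detected, and they are shown with that of unit 2 because they link the V and C genes of each unit. They lie at chr13:19210343-19210402 (plus strand), chr13:19311245-19311304 (minus) and chr13:19342152-19342212 (plus) and were copied whole.
Trgj1: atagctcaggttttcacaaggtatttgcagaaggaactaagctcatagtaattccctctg
Trgj2: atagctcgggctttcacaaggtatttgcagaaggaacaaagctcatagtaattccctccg
Trgj4: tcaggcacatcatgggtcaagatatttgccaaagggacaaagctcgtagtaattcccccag
Trgj1 was at 16.4, 8.01 and 10.2 FPKM in the controls, beside 46.3, 60.3 and 0 FPKM in Abx, and Trgj2 was listed at 0 in all 6 libraries. Trgj4 was at 10.96, 13.95 and 21.8 FPKM in the controls, beside 8.07, 14.1 and 36.5 FPKM in Abx. The groups overlapped in both genes, with limma adjusted p of 0.974 for Trgj1 and 0.971 for Trgj4. These segments are 60 and 61 bases long, so few positions stand behind their FPKM. Abx library 3 held the lowest Trgj1 and the highest Trgj4 of the 6 libraries, and it was also the only library with Trgv1.

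**Figure D3:**
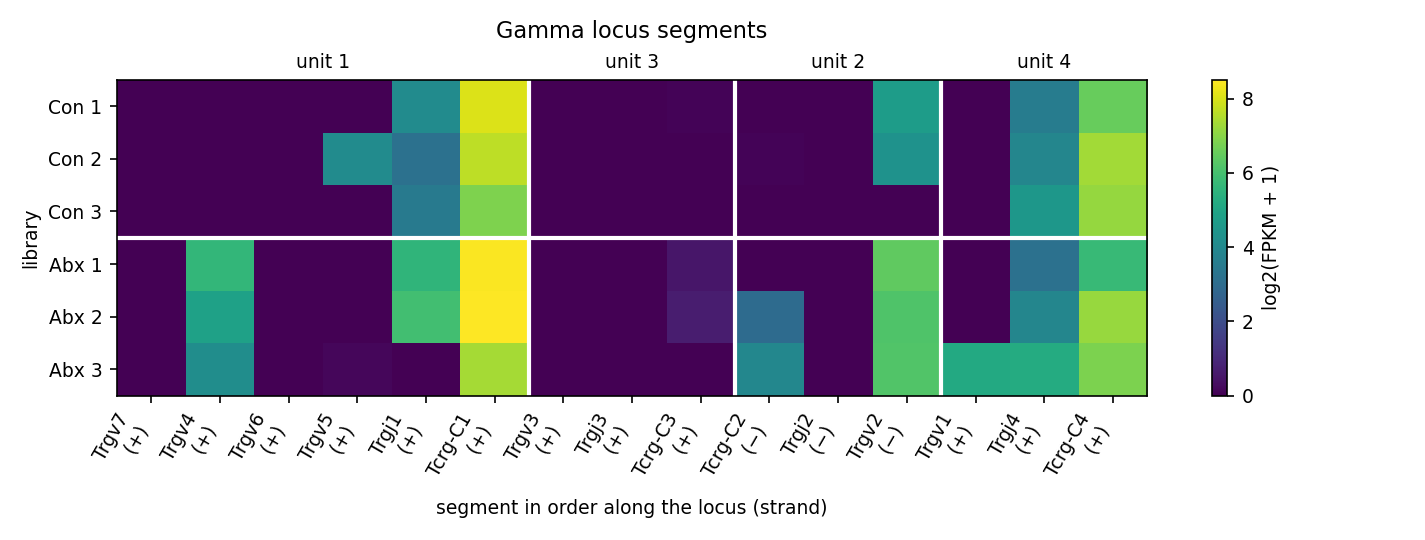
Level of the 15 gamma locus segments as log2(FPKM + 1), with libraries in rows, segments in columns in their order along the locus, the strand in brackets and white lines between units and groups. Tcrg-C1 and Tcrg-C4 are bright in all 6 rows, and Trgv4 is above 0 in the 3 Abx rows only.

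The files hold 36 segments of both loci, 21 of them delta segments or V segments shared by alpha and delta. Of the 27 that are not among the 9 genes, 12 were listed at 0 in all libraries, 6 stayed under 1 FPKM and 9 reached 1 FPKM in a library. Beside the 4 gamma segments already given (Trgv5, Trgv1, Trgj1 and Trgj4), the largest value was that of Trdv2-2, at 50.4 FPKM in Abx library 1 and at 0 to 1.29 FPKM in the other 5 libraries. Trav15-1-dv6-1 was at 6.23 FPKM in Abx library 1 and listed at 0 elsewhere. Trav6-7-dv9 was at 0.31, 0.59 and 0.43 FPKM in the controls, beside 2.96, 0.58 and 1.12 FPKM in Abx. Trav16d-dv11 and Trav21-dv12 did not exceed 1.91 FPKM in any library. Both delta J segments and both D segments were listed at 0 throughout. The genes annotated antisense to Trdc (Gm43434), to Trdv4 (Gm30275) and to Trgv4 (Gm31887) were listed at 0 in at least 5 of 6 libraries, with single values of 4.89 FPKM for Gm30275 in Con library 3 and 0.37 FPKM for Gm31887 in Abx library 2.

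The CD3 chains, which carry a T cell receptor to the surface, were present as RNA in both groups. The list held CD3 delta, epsilon, gamma and zeta and pre-T alpha, which pairs with an unpaired beta chain in thymocytes. Of its 5 genes 5 were tested and 0 were called, with a median difference of 0.96 beside -0.06 over all genes tested. At an unadjusted p under 0.05, 2 were higher, beside 4.74% of all genes tested. Cd3d was at 8.32, 6.10 and 4.46 FPKM in the controls, beside 63.8, 37.2 and 108 FPKM in Abx, a difference of 3.18 (standard error 0.51, limma adjusted p = 0.0911). Ptcra was at 6.13, 0 and 0 FPKM in the controls, beside 63.1, 44.6 and 15.2 FPKM in Abx, a difference of 4.23 (standard error 0.999, limma adjusted p = 0.127). In both genes each Abx library was above each Con library, which held for 8.49% of all genes tested. The same held for Cd3g, at 93.3, 124 and 124 FPKM in the controls, beside 140, 196 and 147 FPKM in Abx. Ptcra passed the limit for the test mainly through its Abx libraries, so that a difference was partly built into its being tested. Cd3e, whose protein was a target of the antibodies that removed other lineages in the sort, was at 3.89, 7.57 and 1.55 FPKM in the controls, beside 18.5, 4.31 and 6.57 FPKM in Abx, with overlapping groups. The antibodies named for this gate include those against CD3e and TCR-beta and none against the gamma delta receptor itself. CD3e is one of the chains that carry a T cell receptor to the surface.

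Among genes of the recombination machinery the differences went both ways. Of 10 genes 6 were tested and 0 were called, and the median difference was 0.16. By unadjusted p below 0.05, 2 were higher and 1 lower, beside 4.74% and 6.25% of all genes tested. Dntt, which encodes the polymerase that adds bases at the junctions, was at 0.03, 0.02 and 11.6 FPKM in the controls, beside 75.9, 139.8 and 156 FPKM in Abx (difference 5.66, standard error 0.997, limma adjusted p = 0.0911). Rag1, one of the recombinase genes, was at 0.86, 0 and 0 FPKM in the controls, beside 12.3, 0.99 and 7.80 FPKM in Abx and was not tested. Rag2, the partner without which the recombinase does not cut, was listed at 0 in all 6 libraries. Xrcc5, a Ku subunit of the end-joining step, had a difference of 2.08 (limma adjusted p = 0.388), and Dclre1c, the Artemis nuclease that opens the hairpin ends, had one of -1.34 (limma adjusted p = 0.217). Dclre1c came into the test only through its Con libraries, and Dntt mainly through its Abx libraries. A difference was therefore built into their being tested, in part for Dntt.

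**Figure D4:**
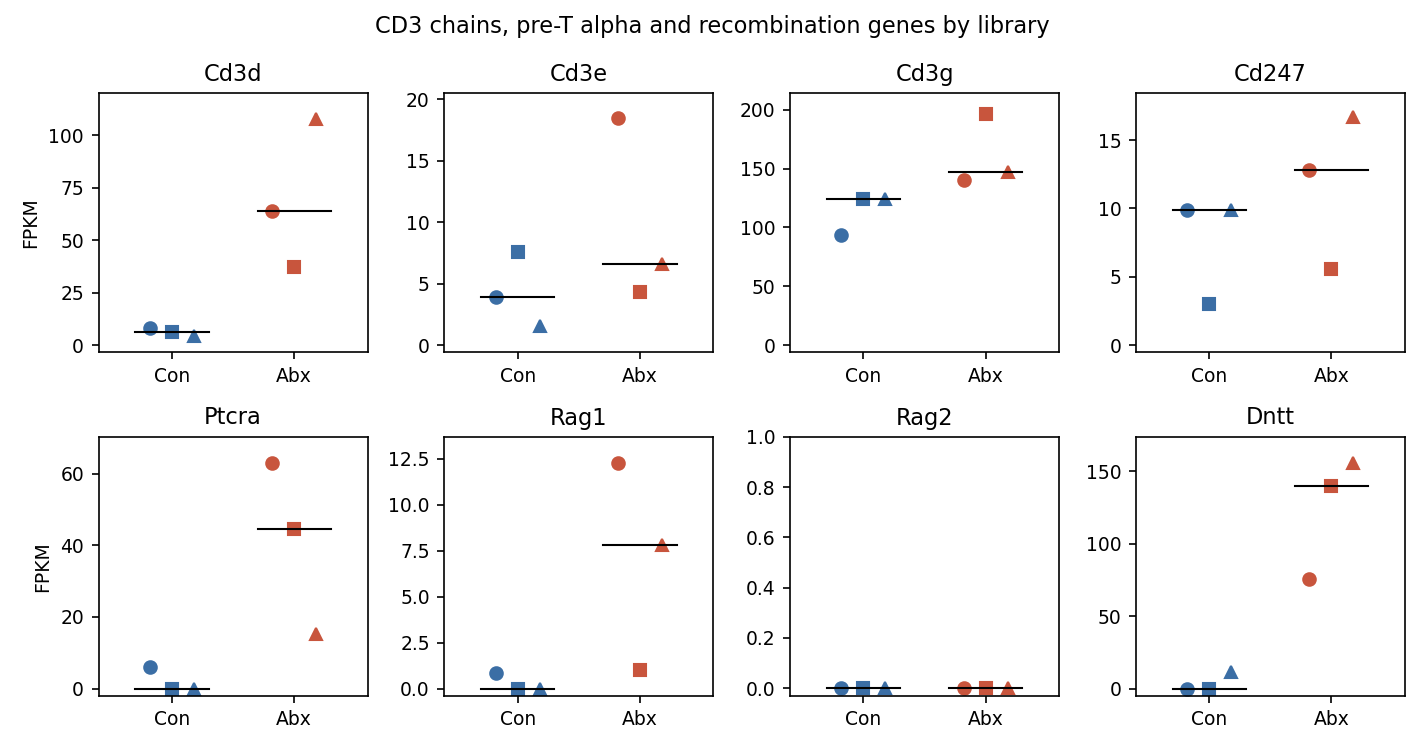
FPKM of the CD3 chain genes, Ptcra, Rag1, Rag2 and Dntt in each library, with a linear axis from 0 for each gene, the markers for the replicate numbers and a line at the median of 3. Cd3d, Cd3g, Ptcra, Rag1 and Dntt show each Abx library above each Con library, Cd3e and Cd247 overlap, and Rag2 is at 0 throughout.

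IL-7 receptor signaling through STAT5 opens the gamma locus for transcription, and 6 of the 6 genes listed for it were tested. Of these 0 were called, 0 were higher and 1 was lower at an unadjusted p under 0.05, beside 6.25% of all genes, with a median difference of -0.25. Stat5a was at 5.34, 4.53 and 1.55 FPKM in the controls, beside 0.62, 0 and 0.06 FPKM in Abx (difference -1.90, standard error 0.57, limma adjusted p = 0.212). It came into the test only through its Con libraries, so that a difference was built into its being tested. Il7r was at 37.2, 18.1 and 56.4 FPKM in the controls, beside 45.2, 57.3 and 45.4 FPKM in Abx, with overlapping groups. Among 13 transcription factors known to act at these loci or in early T cells, 12 were tested and 0 were called, with a median difference of 0.16. Beside 4.74% higher and 6.25% lower among all genes tested, 1 was higher and 1 lower by unadjusted p below 0.05. The former was Tcf7, listed at 0 in all 3 Con libraries and at 29.4, 19.4 and 28.6 FPKM in Abx (limma adjusted p = 0.0911), which like Trgv4 came into the test only through its Abx libraries, and the latter Tcf12 (difference -1.48, standard error 0.59, limma adjusted p = 0.398). Tcf12 passed the limit for the test mainly through its Con libraries.

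The wider programme of gamma delta T cells was mostly undetected. Of 20 listed genes 8 were tested, 0 were called, and only Sox4 was higher at an unadjusted p under 0.05 (difference 2.02, standard error 0.70, limma adjusted p = 0.305), with a median difference of 0.28 over the 8. Sox13, a transcription factor of gamma delta T cells that make IL-17, did not exceed 0.02 FPKM in any library, Il23r was listed at 0 in all 6, and Ccr6 and Zbtb16 did not exceed 0.20 FPKM. Il17a was at 17.9, 48.3 and 120.8 FPKM in the controls, beside 65.4, 95.4 and 26.2 FPKM in Abx, with overlapping groups. Cd163l1 was above 0 only in Abx library 3, at 14.0 FPKM. Summed over the list, the level was 56.1 to 166 FPKM in Con and 161 to 201 FPKM in Abx.

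Markers of other cells also differed between the same libraries, and 0 genes of these lists were called by limma. The 8 markers of alpha beta T cells summed to 1097 to 1305 FPKM in Con and to 2330 to 2661 FPKM in Abx, almost all of it from Trbc1 and Trbc2, with Cd4 at 7.46 FPKM in Abx library 2 and listed at 0 in the other 5 libraries. Of these markers 4 were tested, with a median difference of 1.13. Trbc1 (difference 1.34), Trbc2 (0.92) and Cd8b1 (3.27) were higher at an unadjusted p under 0.05, where 4.74% of all genes tested were. The remaining marker tested, the alpha constant gene Trac, did not pass that limit and had a difference of -0.19. Trac was at 11.7, 3.01 and 10.8 FPKM in the controls, beside 21.2, 14.05 and 0.22 FPKM in Abx, with overlapping groups. Cd8a, Cd5 and Cd6 were not tested, each with overlapping groups. Cd8a was at 3.25, 0 and 0 FPKM in the controls, beside 0.04, 0 and 0 FPKM in Abx. Cd5 was at 0.54, 0.03 and 0.33 FPKM in the controls, beside 0.06, 5.38 and 11.5 FPKM in Abx. For Cd6 these values were 0, 2.45 and 0 FPKM, beside 9.64, 0 and 0 FPKM. The beta V segments summed to 77.8 to 117 FPKM in Con and to 519.7 to 865 FPKM in Abx. The 6 B cell markers summed to 255 to 294 FPKM in Con and to 539 to 596 FPKM in Abx, with Pax5 at 2.33, 0.33 and 0 FPKM in Abx and listed at 0 in Con. Most of the higher sum was Ighm, which averaged 136.7 ± 25.2 FPKM for controls against 403 ± 39.6 FPKM for Abx (SD, n = 3 each), the only B cell marker of 5 tested that was past that limit (difference 1.57, with a list median of 1.33). Cd79b, a part of the B cell receptor, was lower in every Abx library (56.4, 31.0 and 57.4 FPKM) than in any control (69.5, 116.8 and 69.8 FPKM), with a difference of -0.82 (limma adjusted p = 0.472). For 7 NK cell markers the sums were 8.23 to 49.3 and 218.5 to 235 FPKM, nearly all from Gzma in Abx (difference 5.30; median of 3 tested -0.25), while Prf1 and Klrb1c were listed at 0 in all libraries. The 13 ILC2 markers summed to 2052 to 2316 FPKM in Con and to between 1207.5 and 1458 FPKM in Abx, a lower sum that came mainly from Areg, Arg1 and Icos. Of 10 tested, 6 had a lower and 4 a higher mean in Abx, with a median difference of -0.53, and Icos (difference -1.37), Areg (-1.40) and Arg1 (-0.54) were lower at an unadjusted p under 0.05, where 6.25% of all genes tested were. Il5 and Il13, cytokines that ILC2s secrete, were listed at 0 in Con and were not tested. In Abx Il5 was at 0, 57.7 and 24.5 FPKM and Il13 at 0, 10.8 and 10.1 FPKM. The sums of 8 myeloid markers (131 to 366 and 176 to 381 FPKM), 5 of mast cells and basophils (343 to 426 and 185 to 295 FPKM), 4 of lung epithelium (24.5 to 1150.5 and 55.7 to 141 FPKM) and 4 of erythroid cells (6192 to 14607 and 3020 to 8555 FPKM) are given for Con and Abx in turn. In these lists Mcpt8 (difference -2.12) and Kit (-2.21) of mast cells and basophils were lower and Sftpc of epithelium (1.56) was higher at an unadjusted p under 0.05. Kit came into the test only through its Con libraries, so that a difference was built into its being tested. None of the myeloid or erythroid markers passed it, with differences of 0.49 for Lyz2, -1.59 for Cd68, 2.17 for S100a8, -0.90 for Hbb-bs, -0.88 for Hba-a2 and -1.63 for Alas2. The list medians were -2.12 for mast cells and basophils, -1.85 for epithelium, 0.49 for myeloid and -0.90 for erythroid cells. The part of other cells in the gamma and delta values was not tested.

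The genes tested whose profile over the 6 libraries was most like that of Trdc were Cbx1, Sec23a and Sox4. The measure was the root mean square difference of log2(FPKM + 1) after centring each gene on its mean, which was 0.284, 0.291 and 0.309 for these genes, where the median of the 8712 other genes tested was 1.42. Cbx1, a chromatin protein, was at 8.49, 2.45 and 4.61 FPKM in the controls, beside 16.4, 17.2 and 15.2 FPKM in Abx. Closest to the summed gamma constant genes were Ccnd3 (0.0742), Atp5l2-ps (0.098) and Gm14303 (0.103), where the median was 0.934. Ccnd3, a cyclin of the G1 phase, was at 29.1, 30.0 and 23.9 FPKM in the controls, beside 36.7, 44.6 and 26.5 FPKM in Abx, and its groups overlapped as those of the summed genes did.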

How the data were processed

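SMART-seq libraries of 1000 sorted lung ILC2s were compared, 3 Abx and 3 Con. Per the file headers the deposited values are FPKM per gene. According to the study's methods the authors made them with Cutadapt, HISAT2 and StringTie. Those methods name a human Ensembl genome and the submitters' processing notes name Bowtie 0.12.2 with mm8 and mm9, while the identifiers are mouse. GENCODE M21 (GRCm38) holds 55134 of the 55394 identifiers, and its positions were used without knowing that the authors used this build. FPKM were not rescaled. Whole reads were looked for in low values of single-exon genes, and at the best trial step 26.3% to 30.3% were within 0.1 of a whole number, where 20% is the share for arbitrary values, so no counts were derived and no counting error is given.

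Genes that reached 1 FPKM in 3 or more libraries were tested with limma 3.58.1 in R 4.3.3 (lmFit, eBayes with trend) on log2(FPKM + 1), with p-values adjusted over all 8718 genes. The fit was run on simulated normal values as a check of the code, which does not measure its power for these genes. DESeq2, which the authors used, needs counts and was not run. Members under the limit were given an exact permutation test, and for other genes under it no p is given. Transcript sequences came from GENCODE M21 and were aligned in pairs. The members, lists and tests were chosen with earlier results of these data known. Named genes were the 9 members, other segments of both loci that reached 1 FPKM, the listed genes at an unadjusted p under 0.05 or those with the largest differences, and the 3 nearest profiles. Other listed genes were chosen after their values were seen (markers at or near 0, Gata3 and other ILC2 genes, Il7r, Il17a, Cd163l1, Rag1, Rag2, Cd3e, Cd3g, Trac, Cd8a, Cd5, Cd6). So were Xist, Eif2s3y and Polr2h. Alternatives were pseudocounts of 0.1 and 0.01, quantile normalization, median centring, no filter, a mean of at least 5 FPKM, leaving out each library, the replicate number as a block and unadjusted p.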

Additional observations from a re-analysis of the deposited data

How the results depend on the processing

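Over all genes, 4 were called higher and 1 lower in Abx. Both counts were 0 with a pseudocount of 0.1 or 0.01, median centring or no filter. With quantile normalization or the stricter filter, 2 genes were called lower. With unadjusted p, 315 were higher and 499 lower, 3 of the members among them (Trdc, Trgv2 and Trgv4). Leaving out 1 library gave 0 higher and 0 to 2 lower. Fitted as a replicate block, the replicate number gave 0 in each direction, and the correlations of same-numbered libraries (-0.029 to 0.01) show no pairing. No member was called with adjusted p under any alternative. The smallest adjusted p of Trgv4 was 0.0864 and the largest 0.293. The direction held in all alternatives run for 8 members, and Tcrg-C4 ranged from -0.709 to 0.023 with 1 library left out, turning without Abx library 1. The stricter filter gave no value for Trdc, Tcrg-C2, Tcrg-C3 or Trdv5. The size of Trgv4 rested on the pseudocount, at 11.5 with 0.01. Without read numbers, a gene listed at 0 has no upper limit.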
